A study of Mus musculus with 7 samples.

Results

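The genes described here encode the entry point of insulin and insulin-like growth factor (IGF) signalling: the ligands Igf1 and Igf2, the binding protein Igfbp5, the receptors Insr, Igf1r and Igf2r, the docking proteins Irs1 and Irs2, and the adaptors Grb10 and Grb14. They were picked by symbol, and 10 of the 10 symbols were found among the 21487 genes of the count table. RNA came from gastrocnemius, a calf muscle, of mice whose muscle had been immobilized to cause atrophy. The knockout group (4 libraries, knockout 1 to 4) lacked DJ-1, encoded by Park7, in skeletal muscle only, and the control group (3 libraries, control 1 to 3) carried the floxed gene and is also labelled WT. Both groups were immobilized, so the comparison is knockout minus control under disuse. The sources used here do not give age, sex, the Cre driver or whether each library is a separate animal, so the p-values measure the spread between these samples, which may be technical.

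Insulin and the IGFs bind receptor tyrosine kinases on the muscle fibre. The activated receptors phosphorylate the docking proteins IRS1 and IRS2, which recruit PI3-kinase and through AKT raise glucose uptake and protein synthesis and restrain the FoxO factors that drive muscle wasting. GRB10 and GRB14 are related adaptors that bind the activated receptors and inhibit their kinase. In the mouse, Grb10, Igf2 and Igf2r are imprinted, that is, expressed mainly from the copy of 1 parent in many tissues.

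The stretches just before the start sites of the adaptor pair are shown because the pair differed in opposite directions between the groups. They are the 250 bases before each RefSeq start on GRCm38.p6 (mm10), 5′ to 3′ on the minus strand, with CG dinucleotides, the sites of DNA methylation, in capitals. The Grb14 stretch is chr2:65022767-65023016, and the table gives Grb10 an upstream start (chr11:12037421-12037670) and a downstream one (chr11:12027972-12028221).
Grb14: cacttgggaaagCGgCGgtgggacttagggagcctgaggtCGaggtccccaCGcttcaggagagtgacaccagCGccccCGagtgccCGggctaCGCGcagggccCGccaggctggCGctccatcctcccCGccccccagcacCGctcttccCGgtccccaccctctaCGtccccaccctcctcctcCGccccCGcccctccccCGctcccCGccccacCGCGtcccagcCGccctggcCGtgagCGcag
Grb10, upstream start: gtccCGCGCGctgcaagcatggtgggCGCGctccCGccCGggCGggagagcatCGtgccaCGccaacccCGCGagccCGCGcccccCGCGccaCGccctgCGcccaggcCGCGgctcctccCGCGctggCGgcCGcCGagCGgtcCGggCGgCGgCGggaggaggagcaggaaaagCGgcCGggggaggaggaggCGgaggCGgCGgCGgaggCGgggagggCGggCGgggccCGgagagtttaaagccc
Grb10, downstream start: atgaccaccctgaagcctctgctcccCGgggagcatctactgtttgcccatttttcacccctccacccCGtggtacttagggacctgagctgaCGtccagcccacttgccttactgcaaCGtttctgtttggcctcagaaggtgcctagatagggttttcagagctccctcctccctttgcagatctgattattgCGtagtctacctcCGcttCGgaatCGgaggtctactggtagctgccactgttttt

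The Grb14 stretch held 24 CG dinucleotides at 75.2% G and C, above 96.1% of all 32851 promoters of that length. The upstream Grb10 stretch held 40 CG dinucleotides at 81.2% (above 99.1%), and the downstream one held 8 at 54.0% (above 55.2%). No stretch of the pair held GTAAACA, the FoxO core, CAGCTG, an E-box of myogenic factors, TGACNNNGC, the antioxidant response element bound by NRF2, or AAGGTCA, a site of oestrogen-related receptors, on either strand. In GENCODE M21 the genes reach further upstream, to chr2:65024987 for Grb14 and chr11:12038683 for Grb10, and the bases before those ends were not examined.

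The docking protein genes are shown because both held the same combination of motifs. Irs1 is chr1:82291440-82291689 and Irs2 chr8:11008930-11009179, both on the minus strand, with every motif match in capitals.
Irs1: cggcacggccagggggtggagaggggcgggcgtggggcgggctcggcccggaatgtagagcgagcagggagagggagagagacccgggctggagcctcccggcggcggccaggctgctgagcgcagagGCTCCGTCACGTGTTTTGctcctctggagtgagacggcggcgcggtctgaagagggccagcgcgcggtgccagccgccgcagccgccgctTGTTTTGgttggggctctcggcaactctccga
Irs2: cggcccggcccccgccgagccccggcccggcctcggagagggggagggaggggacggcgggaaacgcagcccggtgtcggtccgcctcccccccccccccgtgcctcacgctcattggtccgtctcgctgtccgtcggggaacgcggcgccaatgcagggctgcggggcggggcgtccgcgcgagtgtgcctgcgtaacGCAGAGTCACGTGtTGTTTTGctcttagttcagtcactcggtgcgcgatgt

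Each held a match to TGACNNNGC on the opposite strand, which 10.2% of all promoters of that length hold, overlapping a CACGTG E-box, which 6.02% hold. In Irs1 the antioxidant match began 122 bases before the start and the E-box 115, and in Irs2 they began 51 and 44 bases before it. Both also held TGTTTTG, a core of insulin response sequences that 5.56% of promoters hold, at 111 and 32 bases in Irs1 and at 37 in Irs2. In Irs1 the first of these overlaps the E-box. The last 2 motifs were added after the sequences had been seen. Of the other promoters in the table, Igf2r held CACGTG at 48 and at 7 bases, Igf1r AAGGTCA at 86 and Igf1 CAGCTG at 157, while Igfbp5 and the 4 starts of Igf2 held no match. These matches describe letters only. The table has no entry for Insr.

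Library totals ran from 24458343 to 26389010 expected counts. Of the 13409 genes tested, 895 were higher and 1103 lower in the knockout at an adjusted p under 0.05 (edgeR quasi-likelihood test, Benjamini-Hochberg), a split of 44.8% higher that became 33.2% with upper quartile scaling. Without control 1, 2 or 3 or knockout 3 or 4, the calls numbered 830, 1040, 793, 952 and 1253 against 1998 with every library. Park7, in counts-per-million (CPM), was 229 to 266 in the controls and 34.7 to 41.5 in the knockouts, and fell by 2.71 on the log2 scale (SE 0.0895, edgeR adjusted p = 2.52e-06). The fibre genes fixed to check the tissue (Acta1, Ckm, Ttn, Mb, Tnnt3 and Myh4) summed to 99033 to 123784 CPM in the controls and 125284 to 194618 CPM in the knockouts. Of the 6, Myh4, the myosin of the fastest fibres, rose from a mean of 46309 to 99854 CPM (edgeR adjusted p = 0.038), and Mb, myoglobin, fell from 3527 to 782 CPM (edgeR adjusted p = 0.0101). Those of slow fibres (7 genes) summed to 1683 to 1961 CPM and to 655, 106, 61.7 and 656 CPM in knockout 1 to 4. By edgeR, 2 of the 7 were called lower (Myl2 and Atp2a2), where 8.23% of all tested genes were, and 0 were called without control 1, 2 or 3. In whole muscle, fewer cells of a type and less RNA per cell cannot be told apart.

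The 10 genes passed the filter on low counts. They were put together with the knockout-control differences of these libraries known, so those differences are a description and carry no test. Grb14 was the 1 gene of the 10 past the adjusted p in the comparison, where 14.9% of the genes tested were. The groups did not overlap for Grb14 and Grb10, 2 of the 10, where 28.8% of tested genes had groups that did not overlap. Nothing is read from these shares. Of their 70 values in the table, 1 was not a whole number (Irs2 in knockout 2), so counts were seldom split in fractions with other genes. Reads from genes absent from the authors' annotation, which is not given, would not show in this way.

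**Figure D1:**
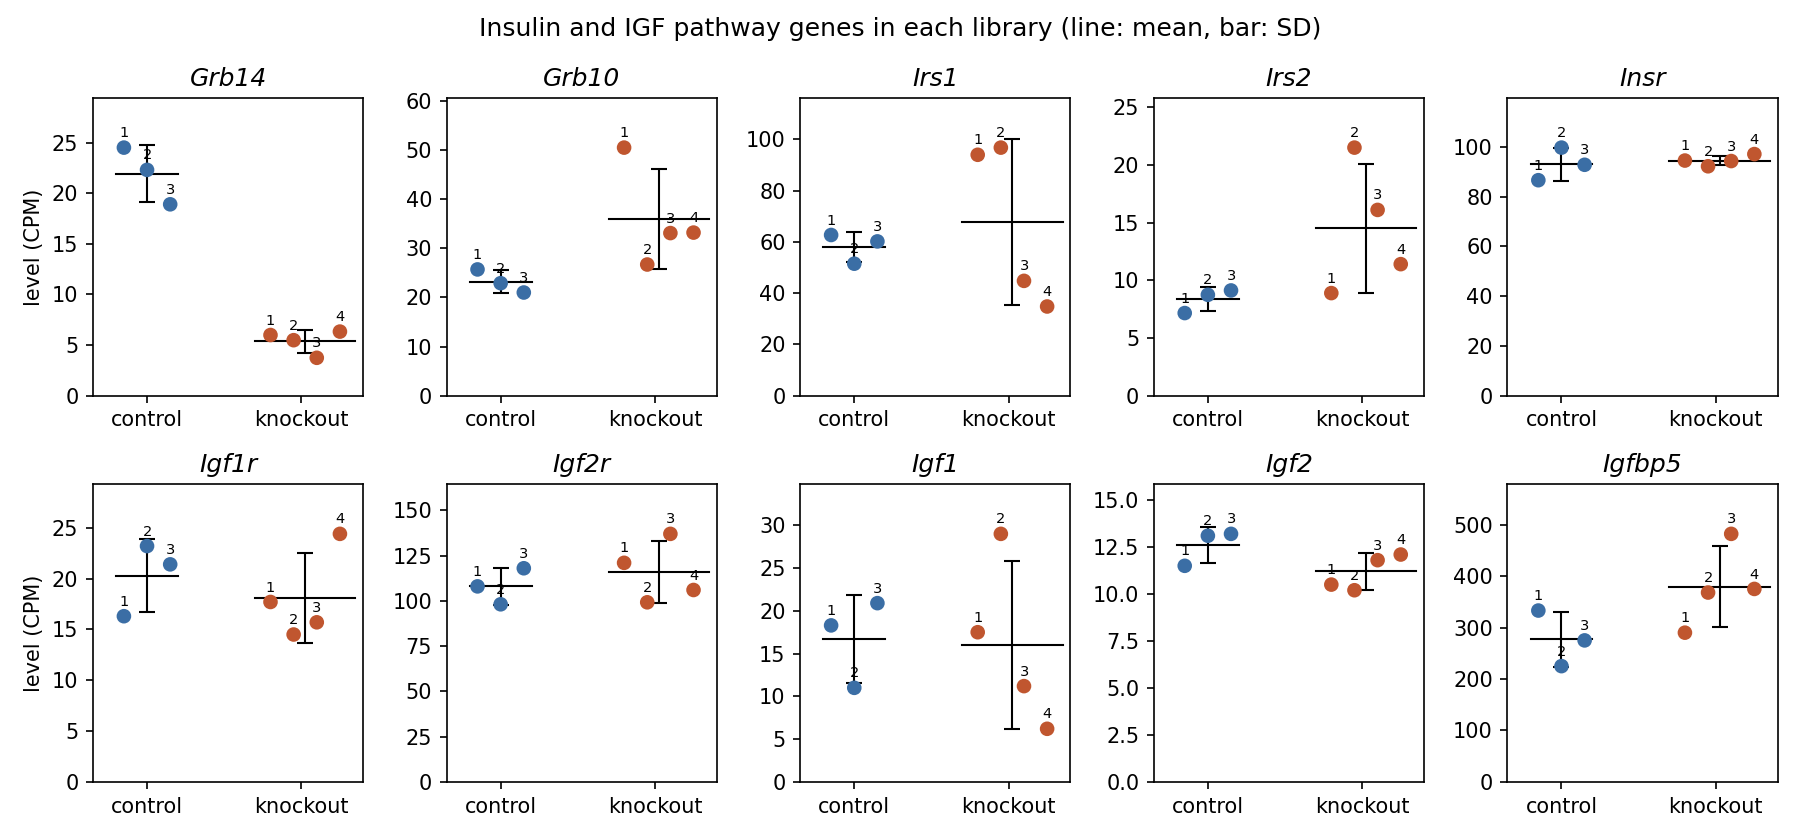
Level of each gene in each library in CPM (points, numbered by replicate), with the group mean (line) and SD (bar), 3 controls and 4 knockouts. Grb14 was 18.9 to 24.5 CPM in the controls and 3.74 to 6.33 in the knockouts, Grb10 was 21.0 to 25.7 and 26.7 to 50.5, and Irs1 and Igf1 spread more among knockouts than among controls.

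Grb14 (ENSMUSG00000026888.14, chr2:64912476-65024987, minus strand, GRCm38), the adaptor that inhibits the insulin receptor kinase, was lower in every knockout library. It stood at 24.5, 22.3 and 18.9 CPM in the controls and at 5.99, 5.48, 3.74 and 6.33 CPM in the knockouts. The lowest control lay well above the highest knockout, and knockout 3 was lowest. The knockout mean was 0.246 times the control mean (5.38 ± 1.15 against 21.9 ± 2.82 CPM, SD, n = 4 and 3), and the log2 fold change was -2.02 (SE 0.173). These levels came from 490 to 610 counts in the controls and 94 to 165 in the knockouts. With each library left out in turn the log2 fold change ran from -2.12 to -1.89. The slow fibre markers summed to 655, 106, 61.7 and 656 CPM in knockout 1 to 4, the same order as for Grb14 (5.99, 5.48, 3.74 and 6.33 CPM). The sums of knockouts 1 and 4 were nearly equal. In control 1 to 3 the slow fibre sums (1683, 1961 and 1915 CPM) did not stand in the order of Grb14 (24.5, 22.3 and 18.9 CPM). The part of the fibre markers in the Grb14 difference was not tested.

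Grb10 (ENSMUSG00000020176.17, chr11:11930508-12038683, minus strand), the related adaptor that also inhibits these receptors and is a substrate of mTOR complex 1, stood the other way. It was 25.7, 22.9 and 21.0 CPM in the controls and 50.5, 26.7, 33.1 and 33.2 CPM in the knockouts. Every knockout lay above every control, knockout 2 by the least, and knockout 1 stood above the other knockouts. The means were 23.2 ± 2.35 and 35.9 ± 10.2 CPM (SD, n = 3 and 4), a ratio of 1.55 and a log2 fold change of 0.63 (SE 0.196), which was 0.41 without knockout 1.

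The 2 adaptors stood at similar levels in the controls and apart in the knockouts. The level of Grb14 was 0.955, 0.975 and 0.901 times that of Grb10 in the controls and 0.118, 0.205, 0.113 and 0.191 times in the knockouts, on the CPM scale. Per kb of exons the ratio was 1.19 ± 0.0485 in the controls and 0.199 ± 0.0606 in the knockouts (SD, n = 3 and 4). It was thus steady among controls and several times lower in each knockout. With the longest transcript as the length of each gene the ratios were 1.71 ± 0.0693 and 0.284 ± 0.0867.

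**Figure D2:**
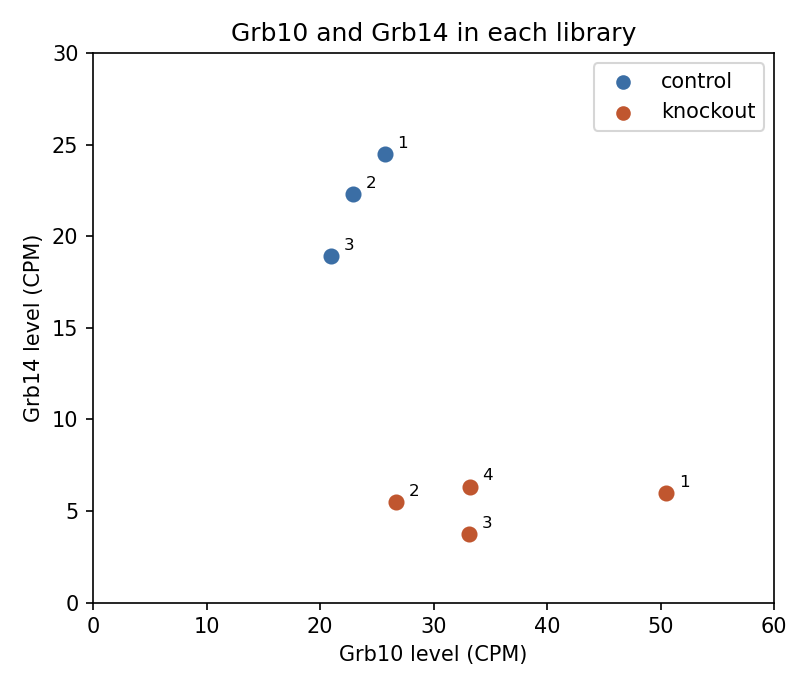
Grb14 level against Grb10 level in CPM, 1 point per library numbered by replicate. The 3 controls lie together at 21.0 to 25.7 CPM of Grb10 and 18.9 to 24.5 CPM of Grb14, and the 4 knockouts lie at 3.74 to 6.33 CPM of Grb14 with Grb10 from 26.7 to 50.5 CPM.

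Among 10423 other genes with a mean log2 CPM above 1, those whose log2 CPM, centred on the control mean, differed least from that of Grb14 over the 7 libraries were Evc, Esrrb and Fndc5, with root mean square differences of 0.19, 0.22 and 0.22. Evc encodes a protein of the primary cilium, Esrrb an oestrogen-related receptor and Fndc5 the precursor of irisin. Fndc5 was 73.8 to 89.6 CPM in the controls and 14.3 to 30.3 CPM in the knockouts, with knockout 3 lowest as for Grb14. The nearest to Grb10 were Zbed6, Naa16 and Gm33302 (0.14, 0.15 and 0.16). Zbed6, a repressor of Igf2 transcription in muscle, was 1.49 to 1.69 CPM in the controls and 2.90, 2.09, 2.11 and 2.18 CPM in the knockouts, with knockout 1 highest as for Grb10. Its counts were low, from 39 to 80 per library. These genes were picked for likeness over the same 7 libraries, so the shared lowest or highest knockout follows from the choice.

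The 2 docking protein genes differed in pattern. Irs1 (ENSMUSG00000055980.2, chr1:82233101-82291416, minus strand) was 62.7, 51.5 and 60.2 CPM in the controls and 94.0, 96.8, 44.8 and 34.8 CPM in the knockouts. Knockouts 1 and 2 lay above every control and knockouts 3 and 4 below every control. The log2 fold change of 0.22 (SE 0.332) lies between these pairs, and it was -0.01 without knockout 2 and 0.43 without knockout 4. The SD of log2 CPM among knockouts was 0.75, larger than in 97.2% of tested genes, against 0.15 among controls.

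Irs2 (ENSMUSG00000038894.7, chr8:10984681-11008458, minus strand), whose gene is a FoxO target in several tissues, was 7.16, 8.74 and 9.12 CPM in the controls and 8.89, 21.5, 16.1 and 11.4 CPM in the knockouts. Knockout 1 lay within the range of the controls and the others above it. The log2 fold change was 0.79 (SE 0.275), from means of 8.34 ± 1.04 and 14.5 ± 5.56 CPM (SD, n = 3 and 4). Irs2 was highest in knockouts 2 and 3, the libraries with the lowest slow fibre sums (106 and 61.7 CPM). Among the controls, control 1 had the lowest slow fibre sum (1683 CPM, against 1961 and 1915 CPM) and also the lowest Irs2. The part of the fibre markers in the Irs2 difference was not tested. Irs2 was 0.114 to 0.170 times Irs1 in the controls and 0.0946, 0.222, 0.359 and 0.326 times in the knockouts on the CPM scale, so knockout 1 stood below the controls and the others above them.

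The receptor genes differed little between the groups. Insr (ENSMUSG00000005534.10, chr8:3122061-3279617, minus strand), the insulin receptor, was 86.6, 99.7 and 92.8 CPM in the controls and 94.5, 92.2, 94.3 and 97.1 CPM in the knockouts. All knockouts lay within the range of the controls, with a log2 fold change of 0.02 (SE 0.0724) that was -0.03 with upper quartile scaling. Its SD of log2 CPM among knockouts, 0.03, was above that of 0.969% of tested genes, which makes it one of the steadiest genes across the 4 knockouts.

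Igf1r (ENSMUSG00000005533.10, chr7:67952827-68233668, plus strand), the type 1 IGF receptor, was 16.3, 23.2 and 21.4 CPM in the controls and 17.7, 14.5, 15.7 and 24.4 CPM in the knockouts. The groups overlapped, with knockout 4 above every control and knockouts 2 and 3 below (log2 fold change -0.17, SE 0.189). Igf2r (ENSMUSG00000023830.14, chr17:12682406-12769664, minus strand), which removes IGF2 and carries mannose-6-phosphate proteins to the lysosome, was 108, 98.1 and 118 CPM in the controls and 121, 99.2, 137 and 106 CPM in the knockouts. Its groups also overlapped (log2 fold change 0.10, SE 0.121). The level of Insr was 4.31 to 5.30 times that of Igf1r in the controls and 3.98 to 6.36 times in the knockouts, on the CPM scale.

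Igf1 (ENSMUSG00000020053.18, chr10:87858265-87937042, plus strand), the growth factor that muscle makes locally, spread widely. It was 18.3, 11.0 and 20.9 CPM in the controls and 17.5, 29.0, 11.2 and 6.21 CPM in the knockouts. Knockout 2 lay above and knockout 4 below every control, a 4.67-fold range among knockouts against 1.89-fold among controls. The log2 fold change of -0.07 (SE 0.44) was -0.53 without knockout 2 and 0.20 without knockout 4. Its SD of log2 CPM among knockouts, 0.94, was larger than in 98.7% of tested genes. As for Irs1, knockouts 1 and 2 were the higher pair and 3 and 4 the lower.

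Macrophages and fibroblasts of muscle also make Igf1. The 6 macrophage markers summed to 44.6 to 70.3 CPM in the controls and to 34.6, 40.6, 29.4 and 27.2 CPM in knockout 1 to 4, and 3 of the 6 fell (edgeR adjusted p under 0.05). The 8 fibroblast and progenitor markers summed to 651 to 1070 CPM in the controls and 764, 701, 779 and 588 CPM in the knockouts, and 3 of the 8 fell, whereas 8.23% of all tested genes fell. These 3 were Lum, Col1a1 and Col3a1, and the groups overlapped for both collagens. Pdgfra, Dcn, Dpt, Gsn and Pi16 had overlapping groups and were not called (edgeR adjusted p = 0.36 to 0.825). The macrophage count was 1 without control 3, knockout 3 or knockout 4, and the fibroblast count 1 without control 1, control 3 or knockout 2, 3 or 4. Each marker of these lists had a count in every library. In control 1 to 3 the macrophage sums (66.8, 44.6 and 70.3 CPM) and the fibroblast sums (970, 651 and 1070 CPM) both stood in the order of Igf1. Among the knockouts, knockout 2 had the most Igf1 and macrophage marker RNA and knockout 3 the most fibroblast marker RNA. Knockout 4 had the least of each. Gsn and Dcn made up most of the fibroblast sum (530 and 249 CPM in control 1). Lyz2 was the largest of the macrophage markers in each control (39.1, 19.0 and 45.1 CPM) and stood in the order of their sum. The part of either cell type in the Igf1 values was not tested.

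Igf2 (ENSMUSG00000048583.16, chr7:142650766-142666816, minus strand), the growth factor most active before birth, was 11.5, 13.1 and 13.2 CPM in the controls and 10.5, 10.2, 11.8 and 12.1 CPM in the knockouts. The groups overlapped through control 1 alone (log2 fold change -0.17, SE 0.107). Igfbp5 (ENSMUSG00000026185.8, chr1:72857932-72874884, minus strand), a secreted protein that binds both IGFs, was 333, 225 and 275 CPM in the controls and 290, 368, 482 and 375 CPM in the knockouts. Knockout 1 lay within the controls and the others above them, with means of 277 ± 53.8 and 379 ± 78.8 CPM (SD, n = 3 and 4) and a log2 fold change of 0.45 (SE 0.179).

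Other genes overlap some of these in GENCODE M21: Igf1os lies opposite Igf1, Igf2os opposite Igf2 and Gm49394 and Mir483 along it, Gm16180 and Vmn2r-ps88 opposite Insr, Airn opposite Igf2r, Gm9747 opposite Irs1 and 9530052E02Rik opposite Irs2. The sources used here do not give the strand setting of the counts, so reads from the opposite partners cannot be told apart from those of the named gene. Gm49394 and Mir483 lie on the strand of Igf2, so no strand setting would tell their reads apart from its own.

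**Figure D3:**
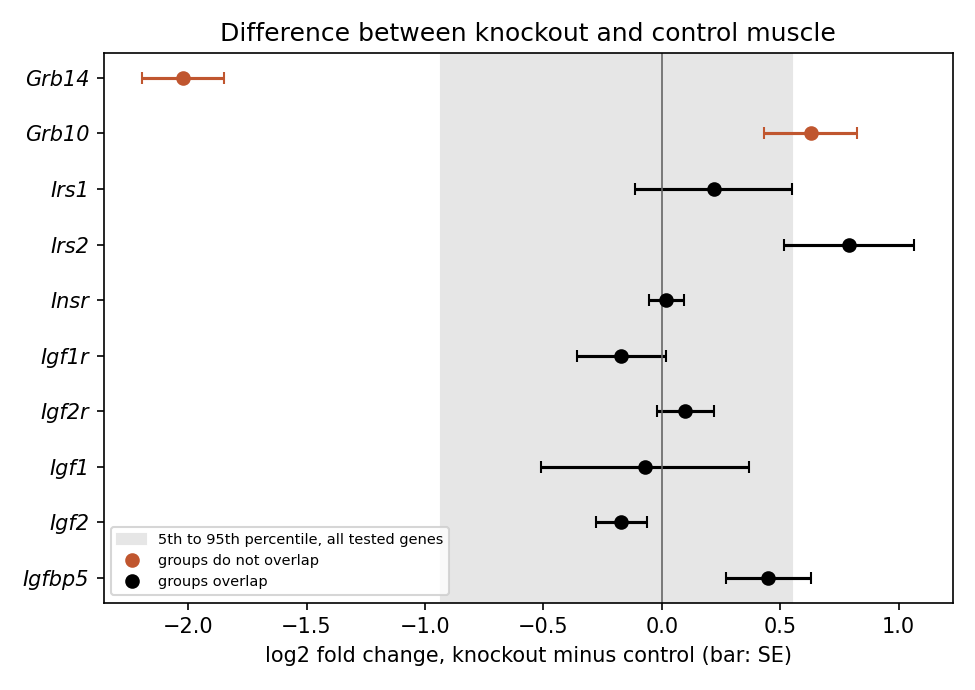
Log2 fold change, knockout minus control (points, bars are SE), over 3 controls and 4 knockouts, with the range from the 5th to the 95th percentile of all tested genes (-0.93 to 0.55) in grey. Grb14 at -2.02 lies below that range and Grb10 at 0.63 and Irs2 at 0.79 above it, and the other 7 lie inside.

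Per kb of exons, Igfbp5 was the most abundant of the genes in the controls, at 46.2 ± 8.96 CPM per kb (SD, n = 3), followed by Igf2r at 11.6 ± 1.09. Insr (6.77 ± 0.480) and Irs1 (6.36 ± 0.645) came next and overlapped. Grb14 (3.05 ± 0.392) and Grb10 (2.55 ± 0.259) overlapped each other and lay below Irs1. Then came Igf2 (2.20 ± 0.164), Igf1 (1.69 ± 0.515), Irs2 (1.32 ± 0.165) and Igf1r (1.21 ± 0.211), in which each overlapped its neighbour. In the knockouts Grb14, at 0.749 ± 0.160 CPM per kb (SD, n = 4), moved from rank 5 to rank 10 of the 10 by its mean, although its range (0.521 to 0.881) overlapped those of Igf1 (0.627 to 2.93) and Igf1r (0.863 to 1.45), and Irs2, at 2.29 ± 0.879, from rank 9 to rank 6. The order depends on the length used: with the longest transcript in place of all exons, Grb14 came to 7.84 CPM per kb in the controls and ranked above Irs1, which it overlapped, and its knockout mean of 1.93 CPM per kb took rank 9, above Igf1r at 1.59.

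**Figure D4:**
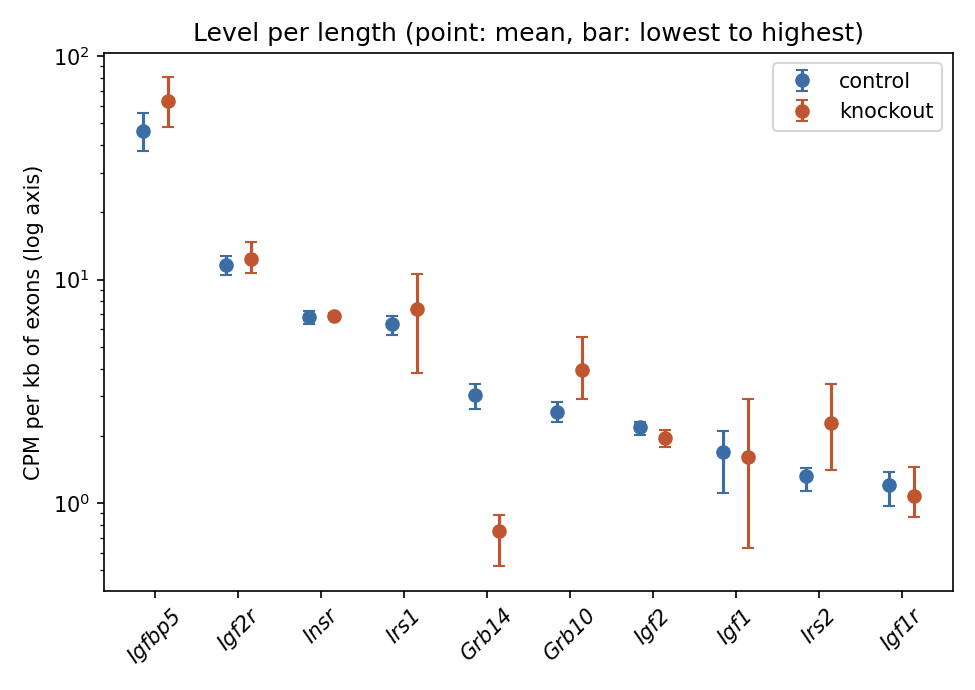
Level per kb of exons on a log axis in controls (blue) and knockouts (orange), in the order of the control means, with points for the mean and bars from the lowest to the highest library. Grb14 drops from 3.05 to 0.749 CPM per kb, a mean below those of the 9 other genes, while its knockout bar overlaps those of Igf1 and Igf1r.

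The rest of the pathway was read from 4 lists, whose genes were tested in the same comparison. Of 9 tested genes for other IGF ligands, binding proteins and the proteases that cut them, 2 rose and 1 fell (33.3% called against 14.9% of all genes, of which 6.67% rose and 8.23% fell, median log2 fold change 0.21 against 0.0058). Igfbp6, which prefers IGF2, fell from 20.2, 15.6 and 23.8 CPM in the controls to 11.1, 9.40, 8.56 and 10.1 CPM in the knockouts, by 1.02 on the log2 scale (SE 0.152, edgeR adjusted p = 0.00645). Htra1, a secreted protease that cleaves IGF-binding proteins, rose from 27.5, 11.7 and 18.7 CPM to 45.7, 44.4, 59.0 and 37.9 CPM, by 1.28 (SE 0.263, edgeR adjusted p = 0.0161). Igfbp3, the main IGF carrier of blood, rose from 10.7, 8.93 and 8.07 CPM to 17.5, 12.3, 12.5 and 17.6 CPM, by 0.70 (SE 0.17, edgeR adjusted p = 0.0288). For each of the 3 genes every knockout lay beyond every control. The call of Htra1 ended without control 3 (adjusted p = 0.0592), and that of Igfbp3 without control 2, control 3, knockout 1 or knockout 4 (0.0579 to 0.101), so that 1 gene of the list was called without control 3. Igfbp6 was called without each library in turn (0.0099 to 0.025).

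Of 35 tested adaptors, phosphatases and ubiquitin ligases that act at the receptors, 1 rose and 1 fell (5.71% called against 14.9%, median -0.04). Socs2, a feedback inhibitor of growth hormone and IGF signalling, fell from 16.1, 13.5 and 19.6 CPM to 6.60, 9.78, 4.54 and 6.29 CPM, by 1.27 on the log2 scale (SE 0.231, edgeR adjusted p = 0.0109). Sh2b1, an adaptor that enhances insulin receptor signalling, rose from 74.1 ± 3.36 to 98.6 ± 10.6 CPM, by 0.41 (SE 0.0941, edgeR adjusted p = 0.0233). Every knockout lay beyond every control for both. Socs2 was called without each library in turn (adjusted p = 0.00386 to 0.0436). The call of Sh2b1 ended without control 1 (0.0845) or control 3 (0.0854), when 1 gene was called, and without knockout 2 the list had 6 calls.

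Of 30 tested genes of the PI3K-AKT branch, 4 rose and 0 fell by edgeR (2 lower at an unadjusted p under 0.05, and 0 with DESeq2), which is 13.3% called against 14.9% of all genes, with a median of 0.06. Rictor, the defining subunit of mTOR complex 2, the kinase complex that phosphorylates AKT, rose from 18.8, 16.1 and 14.7 CPM to 33.0, 38.7, 34.9 and 26.2 CPM, to 2.01 times the control mean (SE 0.144 on the log2 scale, edgeR adjusted p = 0.0059). Its call was made without each library in turn (adjusted p = 0.00497 to 0.0264). Tsc1, part of the complex that holds mTOR complex 1 in check, rose from 67.2 ± 3.08 to 87.0 ± 7.15 CPM, by 0.37 (SE 0.0843, edgeR adjusted p = 0.0231). The other calls were the kinases Akt2, the main AKT of insulin action, from 289 to 298 CPM in the controls to 359 to 396 CPM in the knockouts, and Akt1, from 41.0 to 44.4 CPM to 55.8 to 85.2 CPM. Without control 1 or control 3, 1 gene of the list was called: Tsc1 lost its call without either (adjusted p = 0.0933 and 0.081) or without knockout 3 (0.0525), Akt2 without either (0.0552 and 0.0514), and Akt1 without control 1, 2 or 3 (0.0735, 0.0548 and 0.061).

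Of 21 tested genes of the RAS-MAPK branch, 3 rose and 0 fell by edgeR (1 lower at an unadjusted p under 0.05, and 0 with DESeq2), which is 14.3% called against 14.9% of all genes, with a median of 0.18. Nras, a RAS switch between receptors and the kinase cascade, rose from 26.7, 26.9 and 25.0 CPM to 55.3, 44.5, 56.8 and 45.5 CPM, by 0.95 on the log2 scale (SE 0.109, edgeR adjusted p = 0.00298). Its call was made without each library in turn (adjusted p = 0.00236 to 0.0193). Map2k2, the kinase MEK2, rose from 122 ± 3.90 to 155 ± 7.38 CPM (log2 fold change 0.35, SE 0.0703, edgeR adjusted p = 0.0149), and Rps6ka1, the kinase RSK1, from 7.11 ± 0.449 to 12.5 ± 2.99 CPM (0.81, SE 0.191, edgeR adjusted p = 0.0256). Without control 1, 2 or 3 only Nras was called, and without knockout 2 the list had 6 calls. Map2k2 lost its call without control 1, 2 or 3 (adjusted p = 0.0522 to 0.0539) and Rps6ka1 without those, knockout 3 or knockout 4 (0.0506 to 0.0778).

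**Figure D5:**
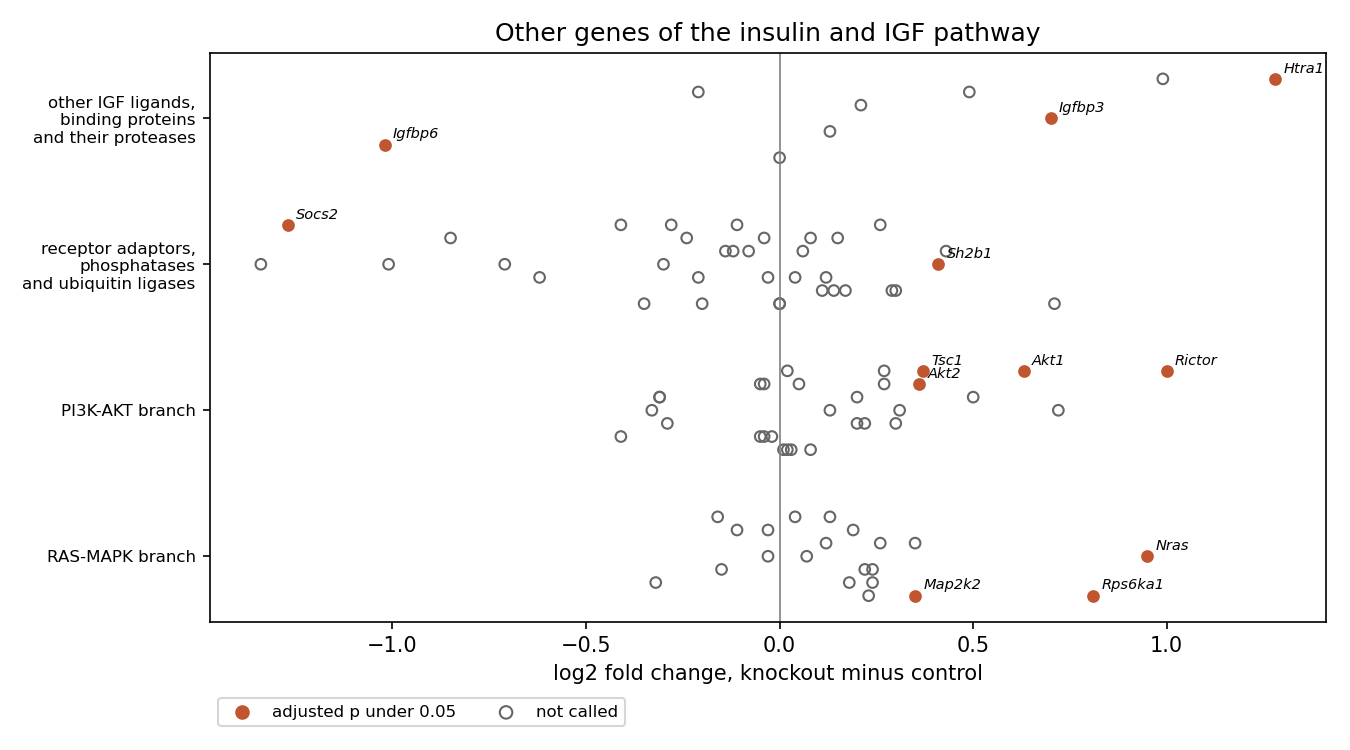
Log2 fold change, knockout minus control, of the tested genes of the 4 pathway lists, 1 point per gene, filled where the edgeR adjusted p was under 0.05 and spread vertically for legibility. The called genes of the PI3K-AKT and RAS-MAPK lists lie to the right of 0, whereas Igfbp6 and Socs2 are called on the left.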

How the data were processed

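Gene counts of 7 libraries of immobilized mouse gastrocnemius (3 control, 4 knockout) were analysed. Per the labels, the authors aligned reads to mm10 with STAR 2.7.10a and counted per gene by RSEM 1.2.28, and DESeq2 (listed as version 1.3.40) served for their tests. The deposited values are RSEM expected counts per gene symbol, not scaled, which were rounded to whole numbers. The sources used here do not give the annotation or the strand setting.

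Of 21487 genes, 13409 passed filterByExpr (default settings) and entered edgeR 4.0.16 (R 4.3.3): TMM scaling, the quasi-likelihood F test on group alone, and Benjamini-Hochberg adjustment over all tested genes, called at an adjusted p under 0.05. SE is the size of the log2 fold change divided by the root of the F statistic. CPM use TMM library sizes, and log2 CPM a prior count of 2. The script was tested on simulated data. Positions, exon lengths and overlaps are from GENCODE M21 (GRCm38), and promoters from RefSeq on GRCm38.p6, for the 250 bases before each start.

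The genes, lists and tests were chosen with earlier results of these data known. The 10 genes of the receptor system were named in every case, with Park7, up to 5 called genes with the smallest p of each pathway list, and the 3 genes most like Grb14 and Grb10. The marker lists not described in the text gave these summed levels, as the range in controls and then in knockouts: endothelium 183 to 230 and 155 to 175 CPM, pericytes and smooth muscle 364 to 504 and 334 to 403, satellite cells 28.0 to 32.5 and 26.0 to 38.5, tenocytes 46.3 to 158 and 16.3 to 49.8, adipocytes 26.9 to 64.0 and 11.9 to 29.2, and Schwann cells 38.8 to 168 and 23.1 to 37.8. By edgeR, 4 of the 6 pericyte and smooth muscle markers fell, where 8.23% of all tested genes fell. The tenocyte, adipocyte and Schwann cell lists had 1 call each, also lower, and the endothelium and satellite cell lists had 0. Alternatives were RLE and upper quartile scaling, DESeq2 1.42.0, a minimum mean count of 10 or no filter, the replicate number as a block, each library left out, and the longest transcript as gene length.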

Additional observations from a re-analysis of the deposited data

How the results depend on the processing

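As a description, 3 of the 10 genes were past the adjusted p with DESeq2, which called 2346 genes in all (16.8% of those with an adjusted p), and 1 to 2 were with 1 library left out. Nothing is read from these counts, since the genes were chosen with this comparison known. No log2 fold change of the 10 moved by more than the SD of log2 CPM pooled within the 2 groups, although the sign of Igf1, Irs1 and Insr changed under at least 1 alternative.

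With 1 library left out, calls over all genes ran from 793 to 2057, those higher from 258 to 966 and those lower from 528 to 1091. Called genes then numbered 1 to 3 for the other ligands and binding proteins, 1 to 6 for the adaptors and phosphatases (4 with DESeq2), 1 to 5 for the PI3K-AKT branch and 1 to 6 for the RAS-MAPK branch. The marker counts were tried under the same alternatives after seeing the data. With 1 library left out, called macrophage markers numbered 1 to 4, fibroblast markers 1 to 3 and slow fibre markers 0 to 2. Fewer samples enter these fits.

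With the replicate number as a block, calls numbered 1273 (577 higher and 696 lower), and the adaptor list had 1 (Dok5). Socs2 (adjusted p = 0.05), Sh2b1 (0.063), Tsc1 (0.0758) and Rps6ka1 (0.0619) were not called in this edgeR fit. Same-numbered controls and knockouts had correlated deviations from their group means of 0.09, 0.13 and 0.09. Each of these controls was most correlated with its own number, a hint from the data that the labels do not state, so the numbers were not taken as pairs. With the longest transcript as length, control levels per kb were 2.37 for Igf1, 2.66 for Igf2, 9.95 for Insr, 1.78 for Igf1r, 4.58 for Grb10 and 7.84 for Grb14. At 3 against 4 libraries, the SE of Igf1 and Irs1 (0.44 and 0.332) leaves differences of their size undetectable.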

Other observations

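Some regulators of the receptors had groups that did not overlap and still did not pass the edgeR test. In their list the groups did not overlap for 8 of the 35 tested genes, where 28.8% of all tested genes had such groups. Nothing is read from this share. Ptpn1, Dok5 and Enpp1 were chosen after their values had been seen, and Crkl, Ptpn11 and Fbxo40 also had such groups without a call. Ptpn1 encodes PTP1B, the phosphatase that switches off the insulin receptor. It was 17.6, 20.5 and 16.9 CPM in the controls and 22.8, 48.3, 23.9 and 25.3 CPM in the knockouts (log2 fold change 0.71, SE 0.256, edgeR adjusted p = 0.0955), with knockout 2 far above the others. Dok5, a docking protein of the insulin receptor family, was 2.17, 4.06 and 2.32 CPM in the controls and 0.907, 2.17, 0.438 and 0.967 CPM in the knockouts (-1.34, SE 0.431, edgeR adjusted p = 0.0682), with knockout 2 just under control 1. Enpp1, a membrane protein that inhibits the insulin receptor, was 2.82 to 3.58 CPM in the controls and 1.43 to 2.50 CPM in the knockouts (-0.62, SE 0.203, edgeR adjusted p = 0.0702). With DESeq2 the adjusted p was 0.0286 for Ptpn1, 0.025 for Dok5 and 0.073 for Enpp1, so that tool called the first and second of them.

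Knockout 2 held the highest knockout level of some genes of this pathway, which were picked after their values had been seen. No count over the pathway was made. Others stood the other way, such as Gsk3b (125, 77.2, 117 and 152 CPM in knockout 1 to 4) and Nedd4 (619, 534, 673 and 760 CPM). Pik3r1, the regulatory subunit of PI3-kinase, was 45.8 to 51.2 CPM in the controls and 62.4, 123, 39.0 and 47.2 CPM in the knockouts. Cblb, a ubiquitin ligase that acts on IRS1 in unloaded muscle, was 20.2 to 25.1 CPM in the controls and 26.9, 52.0, 21.8 and 21.4 CPM in the knockouts. Knockout 2 also had the highest Irs1, Irs2 and Igf1 of the knockouts (96.8, 21.5 and 29.0 CPM) and the lowest Grb10 (26.7 CPM).

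The ubiquitin ligase genes Trim72 and Fbxo40, whose products mark IRS1 for breakdown in muscle, differed little in mean level (0.872 and 1.08 times the control mean). Trim72 was 183 ± 17.6 CPM against 160 ± 18.4 CPM (controls, then knockouts, SD, n = 3 and 4, edgeR adjusted p = 0.244), and its groups overlapped. Fbxo40 was 507 ± 3.96 and 548 ± 28 CPM (edgeR adjusted p = 0.338). Every knockout lay above every control for Fbxo40, although the nearest of each group both rounded to 511 CPM. Slc2a4, the insulin-responsive glucose transporter GLUT4, was 547 ± 74.1 and 628 ± 45.9 CPM (edgeR adjusted p = 0.246).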
